A study of Homo sapiens with 6 samples.

Results

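Nuclear transport receptors and nucleoporins were examined as a group of 41 genes, out of 16571 gene symbols with counts in an RNA-seq table of ovarian cancer cells. The members were chosen by symbol alone. They are the importin alpha and beta genes (KPNA and KPNB), the other importins (IPO), the transportins (TNPO), the exportins (XPO) and the nucleoporins whose symbol is NUP followed by a number. The 41 genes comprised 20 receptors and 21 nucleoporins and came from 55 of 21368 transcript rows, whose counts were summed per gene. KPNA1, IPO4, TNPO3 and XPO5, which belong to the same families, were not analysed here.

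The libraries came from A2780, an established human ovarian cancer cell line that the labels call serous. One group of 3 libraries carried the control vector pGIPZ-NC, a lentiviral vector for short hairpin RNA, and the other group of 3 carried a hairpin against USP39 (shUSP39), a protein of the spliceosome. Both groups were infected with lentivirus, and the study's methods describe stable lines selected with puromycin and more than one hairpin in this vector. Which hairpin each library carried is not given in the labels. Counts of USP39 itself were not analysed here, and the targeted gene gave no check of the labels. The comparison asked which messenger RNAs changed in amount when USP39 was depleted.

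Proteins and RNAs cross the nuclear envelope through nuclear pore complexes, which are built from nucleoporins arranged as stacked rings, a membrane anchor, a central channel, cytoplasmic filaments and a nuclear basket. Importins bind cargo in the cytoplasm and release it in the nucleus when they meet the small GTPase RAN in its GTP form, whereas exportins bind cargo together with RAN-GTP and release it in the cytoplasm. Importin alpha proteins are adaptors that read the classical nuclear localization signal and hand the cargo to importin beta 1, the product of KPNB1.

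The total count lay between 28294819 and 32939264 per library, and 10695 genes passed the filter on low counts. No pair of libraries within a group agreed within sampling noise, the lowest chi-square per degree of freedom being 4.75, and pairs across groups reached 84.5. Genes with at least 1 count numbered between 12662 and 12819 in the pGIPZ-NC libraries and shUSP39 replicate 1, against 15446 and 14890 in shUSP39 replicates 2 and 3. CPM are counts per 1000000 of the TMM-scaled library, except that the marker values in this paragraph use the total count without TMM scaling. Of the markers of ovarian carcinoma and epithelium, PAX8, MSLN, EPCAM, CDH1 and KRT7 reached at most 0.503 CPM in any library. MUC16 lay between 0.030 and 4.96 CPM, KRT8 between 0 and 1.12 CPM and KRT18 between 20.5 and 36.6 CPM. How shared reads were counted is not given, so a low count need not mean a low level. Counts of PAX8, a defining marker of serous tumours, were near 0 and WT1 was not analysed here. Also near 0 were PTPRC, PECAM1 and CD3E of other cell types, at most 0.232 CPM. COL1A1 lay between 5.88 and 8.66 CPM.

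Transcripts of the transport receptors and nucleoporins took a smaller share of the library in shUSP39 cells. The 41 genes held 1.06, 1.04 and 1.02% of all counts in the 3 pGIPZ-NC libraries and 0.942, 0.926 and 0.904% in the 3 shUSP39 libraries, so the groups did not overlap. Shares and CPM are relative to the library, and in bulk RNA fewer cells with a transcript and less of it per cell cannot be told apart.

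In edgeR's quasi-likelihood test, 37 members passed the filter on low counts and 17 of them were lower in shUSP39 at a Benjamini-Hochberg adjusted p under 0.05, which was 45.9% of those tested, against 17.5% of all genes. A single member, KPNA4, was higher, against 16.1% of all genes called higher. The other 19 did not pass, against 33.6% of all genes called in either direction. No called member changed beyond 2-fold or 1.5-fold, whereas 6.81% of all genes were called beyond 2-fold. For members with few counts, such as NUP107, the interval reached beyond 1.5-fold. Among the called members lower in shUSP39 the change ran from -8.72% for NUP188 to -29.98% for KPNA5. The median log2 fold change over the tested members was -0.19, beside 0.01 over all genes. All 3 shUSP39 libraries lay below all 3 pGIPZ-NC libraries for 21 of the 37 members, against 22.5% of all genes, and above them for 1 member, against 21.7%.

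**Figure D1:**
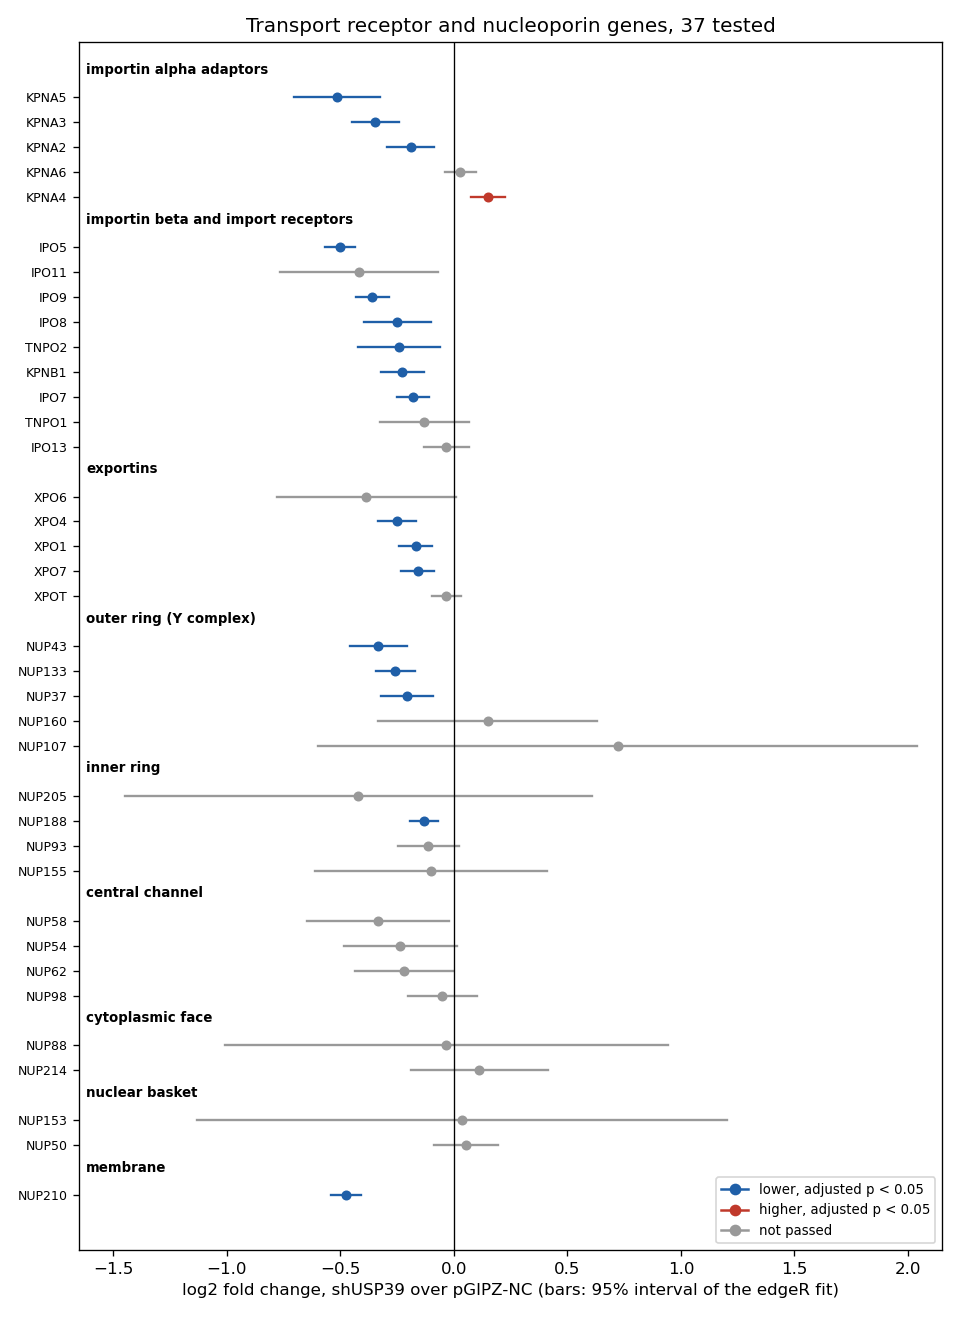
Log2 fold change of shUSP39 over pGIPZ-NC for the 37 tested members, grouped by role, with bars for the 95% interval of the edgeR fit and colours for the call at an adjusted p of 0.05. The 17 called falls lie between -0.51 and -0.13 and the called rise, KPNA4, at 0.15, while NUP107, NUP153, NUP88 and NUP205 have intervals too wide to place them on either side of 0.

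The receptors carried most of the calls. Of 19 receptors tested, 12 were lower and 1 was higher, against 17.5 and 16.1% of all genes. Their median log2 fold change was -0.23. Of 18 nucleoporins tested, 5 were lower and none was higher, with a median of -0.12. This difference between the classes was not tested. The nucleoporins were measured at lower depth, with a median of 405 counts per library against 5717 for the receptors. With at least 1000 counts, 5 of 8 nucleoporins and 10 of 14 receptors were lower, against 33.1% of all genes above that limit.

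Among the import receptors of the importin beta family, 6 of 9 members were lower, against 17.5% of all genes. The other 3 also had a negative estimate. Their summed level was 3447, 3349 and 3256 CPM in the pGIPZ-NC libraries and 2845, 2764 and 2704 CPM in the shUSP39 libraries, with no overlap. KPNB1, importin beta 1, is the carrier of classical cargo. It maps to chromosome 17, 45726842 to 45762871, on the plus strand of GRCh37, with 23 exons in the longest coding isoform. The 3 control libraries measured 183, 191 and 179 CPM, and the 3 shUSP39 libraries measured 151, 154 and 168 CPM. All shUSP39 libraries lay below the lowest control, with shUSP39 replicate 3 nearest to it. The log2 fold change was -0.23 ± 0.047 (SE), a fall of 14.5%, with an adjusted p of 0.00034. The study chose KPNB1 for follow-up partly on these libraries, so its direction here is not independent evidence. It also drew on sequencing of RNA bound by tagged USP39. The study's stated limit for changed expression was 2-fold, which this fall did not reach.

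IPO5, which imports ribosomal proteins among other cargo, showed the steepest fall of the deeply measured receptors. Its CPM values were 756, 746 and 723 with pGIPZ-NC against 533, 514 and 525 with shUSP39. The gap between the groups was several times the spread within either, and the log2 fold change was -0.50 ± 0.033 (SE, adjusted p = 2.10e-12). The gene spans 98605912 to 98676550 on chromosome 13, plus strand. IPO9, an importer of core histones and actin, measured 587, 581 and 590 CPM in control libraries and 469, 466 and 435 CPM in knockdown libraries. The knockdown libraries again lay entirely below, and the log2 fold change was -0.36 ± 0.035 (SE, adjusted p = 5.74e-09).

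IPO7, which carries ribosomal proteins and, together with importin beta 1, linker histone, had the most counts of all members. It stood at 1682, 1586 and 1512 CPM with pGIPZ-NC and 1458, 1400 and 1358 CPM with shUSP39, a smaller fall whose groups still did not overlap (log2 fold change -0.18 ± 0.035 SE, adjusted p = 0.000159). IPO8, the close relative of IPO7, was covered by fewer counts. The IPO8 values of 43.8, 42.4 and 42.3 CPM with pGIPZ-NC and 36.7, 37.3 and 34.0 CPM with shUSP39 put the log2 fold change at -0.25 ± 0.072 SE, with an adjusted p of 0.00784. Without shUSP39 replicate 3 the adjusted p of IPO8 was 0.0518.

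Transportins carry RNA-binding proteins such as hnRNP A proteins into the nucleus. TNPO2 measured 23.5, 23.5 and 23.5 CPM in the controls and 19.4, 20.6 and 19.5 CPM in the knockdown, a fall of 15.5% with no overlap (log2 fold change -0.24 ± 0.088 SE, adjusted p = 0.035). This call was the least secure of the 18, since it did not pass in 9 of 15 alternative analyses. With 1 library left out its adjusted p was between 0.0491 and 0.0924, and it passed only without shUSP39 replicate 2. Its paralog TNPO1 did not pass, with overlapping groups and a log2 fold change of -0.13 (95% interval -0.33 to 0.07).

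IPO13, which works in both directions across the pore, had the highest CPM of the import receptors that did not pass. Its level of 147 ± 7.504 CPM (SD, n = 3) with pGIPZ-NC and 144 ± 4.78 CPM (SD, n = 3) with shUSP39 gave a log2 fold change of -0.03 (95% interval -0.13 to 0.07), whose sign turned to 0.01 with upper-quartile scaling. A fall of the size seen for IPO9 or IPO5 lay outside that interval. IPO11 had all shUSP39 libraries below the controls and a log2 fold change of -0.42, but rested on a mean of 163.5 counts and had an adjusted p of 0.0589.

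The importin alpha adaptors moved in both directions. Of 5 tested, KPNA2, KPNA3 and KPNA5 were lower, KPNA4 was higher and KPNA6 did not pass. Over all genes 17.5% were lower and 16.1% higher. KPNA3 and KPNA4 encode the closely related importins alpha 4 and alpha 3, and their transcripts moved oppositely. KPNA3 was at 217, 203 and 203 CPM with pGIPZ-NC and 178, 152 and 159 CPM with shUSP39 (log2 fold change -0.35 ± 0.050 SE, adjusted p = 4.05e-06). KPNA4 was at 503, 497 and 462 CPM with pGIPZ-NC and 560, 538 and 524 CPM with shUSP39 (log2 fold change 0.15 ± 0.037 SE, adjusted p = 0.00227). Neither gene's groups overlapped. KPNA3 lies on chromosome 13 from 50273456 to 50366818 and KPNA4 on chromosome 3 from 160212795 to 160283359, both on the minus strand of GRCh37.

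KPNA5, of the importin alpha 1 subfamily, had the lowest estimate of the called members but few reads, and it lay within its error of IPO5. Its level was 26.1, 27.5 and 24.4 CPM in the controls and 17.3, 17.97 and 19.4 CPM in the knockdown, with no overlap (log2 fold change -0.51 ± 0.092 SE, adjusted p = 6.43e-05). KPNA2, the adaptor that rises in proliferating cells, was at 151, 133 and 139 CPM against 124, 120 and 126 CPM. The lowest control and the highest knockdown library were close here, and the log2 fold change was -0.19 ± 0.051 (SE, adjusted p = 0.0043). KPNA6, the paralog of KPNA5, was at 511 ± 2.77 CPM (SD, n = 3) and 521 ± 11.7 CPM (SD, n = 3), with a log2 fold change of 0.03 and a 95% interval of -0.04 to 0.10. KPNA7, an adaptor of egg and early embryo, had 1 count in 1 library and was not tested.

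With both directions present, the summed level of the adaptors was 1409, 1373 and 1337 CPM with pGIPZ-NC and 1411, 1351 and 1337 CPM with shUSP39. The groups overlapped, unlike the sums of the import receptors. Among the adaptors summed, which lack KPNA1, the make-up differed although the total in CPM did not separate the groups. CPM are not corrected for transcript length, and KPNA4 and KPNA6, with the highest CPM, weigh most in this sum. KPNA2 and KPNA5 have several RefSeq messenger RNAs. How shared reads were counted is not given, so the weight of these 2 genes in the sum is uncertain.

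**Figure D2:**
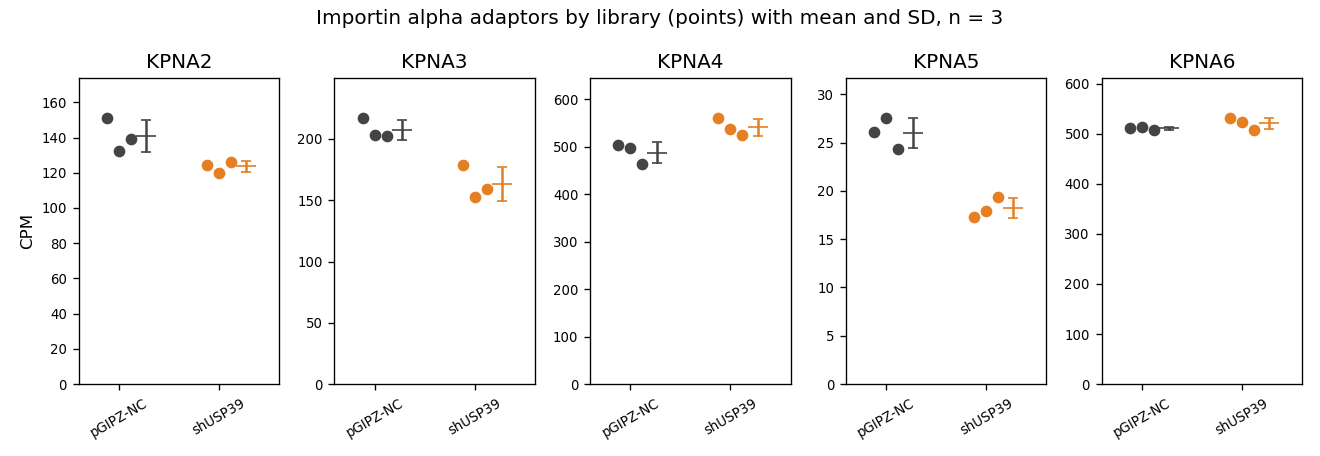
CPM of the 5 tested importin alpha genes in each library (points), with the group mean and SD (n = 3) beside them, each panel starting at 0. KPNA2, KPNA3 and KPNA5 are lower in every shUSP39 library than in any pGIPZ-NC library, KPNA4 is higher in every one, and KPNA6 overlaps.

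Of the exportins, 3 of 5 members were lower, against 17.5% of all genes, and none was higher. XPO1, the receptor for leucine-rich nuclear export signals, measured 1348, 1257 and 1224 CPM with pGIPZ-NC and 1192, 1112 and 1104 CPM with shUSP39 (log2 fold change -0.17 ± 0.036 SE, adjusted p = 0.000486). XPO4, which exports the translation factor eIF5A, measured 239, 230 and 223 CPM against 197, 196 and 190 CPM (log2 fold change -0.25 ± 0.041 SE, adjusted p = 2.31e-05). XPO7, a receptor with broad cargo, measured 491, 477 and 493 CPM against 451, 436 and 421 CPM (log2 fold change -0.16 ± 0.035 SE, adjusted p = 0.000739). In all 3 the groups were apart, with changes between -15.9 and -10.5%.

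XPOT, which exports transfer RNA, did not follow them. Its libraries stood at 1055, 1016 and 998.75 CPM with pGIPZ-NC and 1025, 989 and 985 CPM with shUSP39, and the ranges overlapped. The log2 fold change of -0.03 had a 95% interval of -0.10 to 0.03 and turned to 0.01 with upper-quartile scaling. With a mean of 31171 counts per library XPOT was among the deepest measured members, so falls of the size of XPO4 lay outside its interval. XPO6, the exporter of actin, lay below the controls in every shUSP39 library with a log2 fold change of -0.39, but at a mean of 123.8 counts it did not pass (adjusted p = 0.129).

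**Figure D3:**
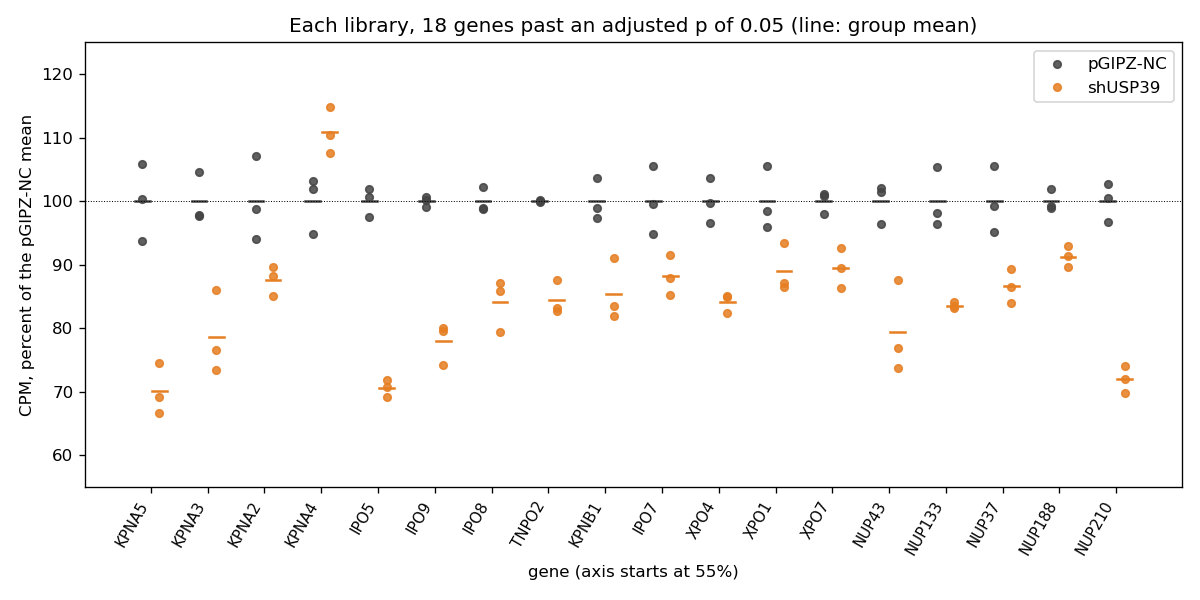
CPM of the 18 called members in each library, as a percentage of the pGIPZ-NC mean of that gene, with a line for each group mean (the axis starts at 55%). For 17 genes all shUSP39 points lie below all pGIPZ-NC points, for KPNA4 all lie above, and the group means of KPNA5, IPO5 and NUP210 are the lowest.

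Among the nucleoporins with a NUP symbol, the called members belonged to the scaffold rings and the membrane. The outer ring, or Y complex, is the scaffold that coats both faces of the pore. Of its 5 tested members NUP43, NUP133 and NUP37 were lower, against 17.5% of all genes. NUP133 was at 250, 229 and 233 CPM with pGIPZ-NC and 200, 198 and 198 CPM with shUSP39 (log2 fold change -0.26 ± 0.042 SE, adjusted p = 1.74e-05). NUP43 was at 90.1, 94.8 and 95.4 CPM against 81.8, 71.9 and 68.9 CPM (log2 fold change -0.33 ± 0.062 SE, adjusted p = 0.000106). NUP37 was at 103, 96.7 and 92.7 CPM against 84.3, 81.7 and 87.0 CPM (log2 fold change -0.21 ± 0.055 SE, adjusted p = 0.00416). The groups did not overlap for any of these 3 genes, though shUSP39 replicate 1 of NUP43 lay well above the other knockdown libraries.

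The other Y complex members with a NUP symbol had few counts. NUP160 had a mean of 82.7 counts and a log2 fold change of 0.15 (95% interval -0.34 to 0.63). NUP107 had a mean of 12.5 counts and a 95% interval of -0.60 to 2.04 about an estimate of 0.72. NUP85, with a mean of 3.5 counts, was not tested. A change in these subunits of the size seen in NUP133 was not detectable at this depth.

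The inner ring links the outer rings to the channel. NUP188 had by far the most counts of its members and stood at 965, 990 and 960 CPM with pGIPZ-NC and 888, 902 and 871 CPM with shUSP39. The groups were apart by a small margin, and the log2 fold change of -0.13 ± 0.030 (SE, adjusted p = 0.00119) was the smallest called fall. NUP205, the paralog of NUP188, had a mean of 18.7 counts and could not be placed on either side of 0. NUP93, with a mean of 1626 counts and levels of 54.8 ± 2.12 and 50.7 ± 2.36 CPM (SD, n = 3 each), overlapped between groups and did not pass (log2 fold change -0.11, adjusted p = 0.206). NUP155 did not pass at a mean of 73.5 counts, and NUP35, at 5.67, was not tested.

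NUP210 is a glycoprotein of the pore membrane that is present only in some cell types. It lies on chromosome 3 from 13357735 to 13461822 on the minus strand, with 40 exons. Its libraries stood at 1091, 1158 and 1133 CPM with pGIPZ-NC and 787, 835 and 812 CPM with shUSP39, a fall of 28.0% that was far larger than the spread in either group (log2 fold change -0.47 ± 0.032 SE, adjusted p = 5.40e-12). NUP210L, its germ-line relative, had a mean of 5.33 counts and was not tested.

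None of the 8 members of the central channel, the cytoplasmic face and the nuclear basket passed, whereas 33.6% of all genes did. Nucleoporins of these places that carry other symbols, such as TPR and RANBP2, are no members and are given with the pathway genes. In the channel, whose phenylalanine-glycine repeats form the permeability barrier, NUP62, NUP58, NUP54 and NUP98 had negative estimates between -0.33 and -0.05. Of these 4, 2 had an unadjusted p under 0.05 in edgeR, and 0 passed in DESeq2 or limma-voom. NUP58 passed without shUSP39 replicate 2 (log2 fold change -0.51, adjusted p = 0.0198). NUP98, with the highest CPM of them, was at 51.7 ± 2.29 CPM (SD, n = 3) with pGIPZ-NC and 49.9 ± 5.03 CPM (SD, n = 3) with shUSP39.

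On the cytoplasmic face, the filament protein NUP214 was at 8.34 ± 1.602 CPM with pGIPZ-NC and 8.99 ± 0.0566 CPM with shUSP39 (SD, n = 3 each), and NUP88 rested on a mean of 25.2 counts. In the basket, NUP50, a cofactor that helps importin alpha release cargo, was at 52.6 ± 2.85 CPM and 54.6 ± 3.95 CPM (SD, n = 3 each), and the fitted log2 change was 0.05 (95% interval -0.09 to 0.20). NUP153, the basket's anchor, had a mean of 17 counts. Of these 4 genes 0 had an unadjusted p under 0.05 in edgeR, and 0 passed in DESeq2 or limma-voom. The sums of the basket genes were 49.6, 54.8 and 55.1 CPM against 51.7, 54.8 and 59.1 CPM, overlapping throughout.

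Depth differed widely between members and moved with the calls. Of 22 members with a mean of at least 1000 counts per library, 15 were lower and 1 was higher. Among all genes above that limit 33.1% were lower and 19.7% higher, and the median log2 fold change was -0.05 against -0.19 for these members. The limit does not match depth. These members had a median of 6635 counts against 3755 for all such genes, and a median standard error of 0.041 against 0.051. How much of the difference in calls comes from depth was not tested. Of 15 members with fewer counts, 2 were lower (KPNA5 and TNPO2), against 9.01% of all such genes, while their median was -0.22. The median standard error was 0.041 in the deeper set and 0.17 in the shallower one. A fall of the median size could thus be called in the first set and mostly not in the second.

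The number of RefSeq messenger RNAs of a gene moved with its depth. By the current RefSeq list, 14 members have 1 messenger RNA and 27 have several, and 16 of these 27 had only 1 transcript row in the table. The 13 tested members with 1 messenger RNA had at least 2583 counts on average. Those with several went down to 12.5. Whether reads shared between transcripts were left out of the counts was not tested, and how reads shared with paralogs, pseudogenes or overlapping genes were assigned is not given in the sources used here. Among the 13, 9 were lower and 1 was higher, against 24.9 and 23.1% of all genes with 1 messenger RNA. Among the 24 tested members with several, 8 were lower, against 13% of all genes with several. These shares cover genes of any depth. The 13 members had a median of 15897 counts, against 340 over all genes tested. All 15 tested members under 1000 counts were among these 24, and of the other 9, which include KPNB1 and XPO1, 6 were lower.

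**Figure D4:**
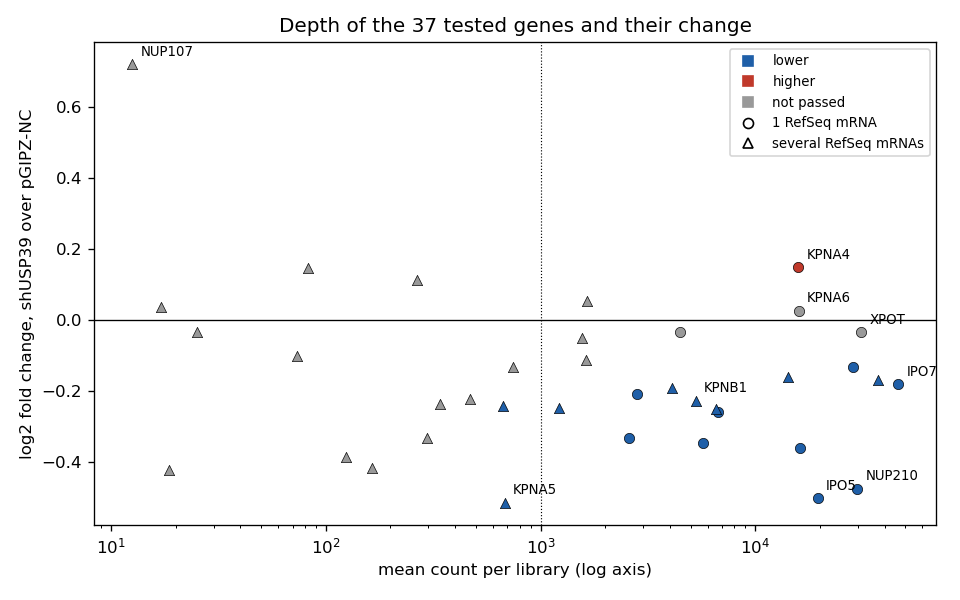
Log2 fold change of shUSP39 over pGIPZ-NC against the mean count per library (log axis) for the 37 tested members, with circles for genes with 1 RefSeq messenger RNA and triangles for genes with several. Right of the dotted line at 1000 counts, 15 of 22 members are called lower, and left of it 2 of 15 are.

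For the 13 members with 1 messenger RNA, levels could be compared per kilobase of transcript. IPO7 was highest in pGIPZ-NC, at 259 ± 13.8 CPM per kb (SD, n = 3), followed by NUP188 at 171 ± 2.78, XPOT at 161 ± 4.55 and NUP210 at 156 ± 4.77. The neighbours XPOT and NUP210 overlapped between libraries, and NUP188 did not overlap XPOT. IPO5 came next at 124 ± 2.85 CPM per kb, then KPNA6 at 69.5 ± 0.377 and KPNA4 at 54.4 ± 2.42. IPO9, KPNA3 and NUP133 lay between 51.3 and 45.6 CPM per kb, and each overlapped its neighbour in this order. NUP37 and IPO13, at 41.2 and 37.95 CPM per kb, overlapped as well, and NUP43 was lowest, at 24.4 ± 0.756.

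In shUSP39 the order changed where the folds differed. XPOT, at 157 ± 3.45 CPM per kb, came level with NUP188 at 156 ± 2.78, and NUP210 dropped to 113 ± 3.33, apart from both. KPNA4 rose to 60.4 ± 1.99 while IPO9 fell to 40.01 ± 1.68 CPM per kb. The libraries of KPNA4 and IPO9 overlapped per kilobase in the controls and were apart in the knockdown.

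No shift between the listed transcripts of a gene was detected in the 8 member genes that could be tested. Of the 55 transcript rows 45 were tested, and 16 were lower and 1 was higher, against 15.1 and 14.2% of all transcripts. The main KPNB1 transcript, NM_002265.5, held 99.4 ± 0.290% of the gene's counts with pGIPZ-NC and 99.3 ± 0.176% with shUSP39 (SD, n = 3 each), and its log2 fold change was -0.23. Transcript usage could be tested with edgeR's diffSpliceDGE in 8 member genes, namely KPNA2, KPNB1, NUP50, NUP62, NUP98, NUP214, TNPO1 and TNPO2. None passed at an adjusted p under 0.05, against 3.69% of all genes tested for usage. At that share 8 genes are too few to set the members apart from other genes. Before adjustment 0 of the 8 had a p under 0.05. The lowest p was that of NUP62, 0.0979 before and 0.429 after adjustment. In NUP62 the minor transcript held 5.18 ± 2.03% of counts with pGIPZ-NC and 7.98 ± 1.10% with shUSP39. The rows are RefSeq transcripts, so retained introns, unspliced RNA and unlisted exon skips have no row of their own. A change in these could not be seen here. For KPNB1 the study reported by RT-PCR more unspliced and less spliced RNA after USP39 knockdown.

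The members are genes with many exons. In the longest coding transcript of GENCODE release 44 they had a median of 24 exons, against 9 over tested genes with an entry. Of 23 tested members with over 20 exons 12 were lower, against 26.0% of all such genes, and of 5 members with at most 10 exons 3 were lower, against 15.2%. Of 9 members with 11 to 20 exons 2 were lower, against 18.8%. The shares of all genes cover any depth and were not matched to the members. Across the 37 members Spearman's rho between exon number and log2 fold change was -0.01, and across the 22 members with at least 1000 counts it was -0.23, given as a description across genes measured in the same libraries.

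The promoters of the members were searched for the E-box CACGTG, the site of MYC and related factors, as the called members moved mostly one way. The motif is its own reverse complement, so both strands are read at once. RefSeq promoters of 300 bases, from 250 before to 50 after the start (GRCh38.p14), were matched for 35 member genes. The E-box stood in 6 of 47 such promoters, or 12.8%, against 8.52% of promoters of all genes in the table. All 6 genes with a match are shown. Of them 5 were called lower, all but NUP50, where 17 of 37 tested members were. All but TNPO2 had a mean of at least 1000 counts, and at that depth 15 of 22 members were lower. The share called lower among all genes with an E-box was not computed. Whether the motif and the call are related was not tested. Each window holds 30 bases on the gene's strand with the E-box in capitals.
IPO7, chr11:9384502-9384531, plus strand: agctcaggcagcCACGTGggctgcggactg
KPNA3, chr13:49792731-49792760, minus strand: accgcccccggtCACGTGtcgccagcctcc
NUP188, chr9:128947610-128947639, plus strand: ccgcggcaacgtCACGTGacgaaatccccg
NUP50, chr22:45163739-45163768, plus strand: cgttgccggcccCACGTGagccgacgcccc
TNPO2, chr19:12723939-12723968, minus strand: ggcggctttctgCACGTGtttctcagccca
XPO1, chr2:61537114-61537143, minus strand: gtccgcctgcatCACGTGgccccctcggtg
The steepest falls of the deeply measured members, IPO5 and NUP210, were not among these genes. A match describes the letters of the window and is not a measured binding site.

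Genes of the same pathway with other names were read from a list of 45, of which 38 were tested. Of these, 10 were lower, 1 was higher and 27 did not pass, against 17.5% lower and 16.1% higher over all genes. The median log2 fold change was -0.12. The 10 called falls all had a mean of at least 1577.7 counts, and of all genes with at least 1000 counts 33.1% were lower. Among nucleoporins with other symbols 5 of 13 were lower, in the RAN cycle 1 of 5 (RAN itself), among other receptors and adaptors 1 of 7, and in messenger RNA export 3 of 13 with 1 higher. The called nucleoporins were TPR of the basket (log2 fold change -0.31), RANBP2, GLE1 and NUPL2 of the cytoplasmic face (-0.15, -0.26 and -0.39) and SEH1L of the Y complex (-0.18). They were thus not limited to the rings and the membrane.

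The steepest called falls of the list were 2 subunits of the THO complex, which couples transcription to messenger RNA export, and a cytoplasmic nucleoporin. THOC1 was at 111, 103 and 99.5 CPM with pGIPZ-NC and 80.9, 74.5 and 69.2 CPM with shUSP39 (log2 fold change -0.48, adjusted p = 4.08e-07). THOC2 was at 322, 292 and 275 CPM against 233, 230 and 210 CPM (log2 fold change -0.40, adjusted p = 8.48e-07). NUPL2, the older symbol of NUP42, was at 105, 100.92 and 95.5 CPM against 81.3, 74.6 and 75.2 CPM (log2 fold change -0.39, adjusted p = 4.71e-06). None of these 3 overlapped between groups. NXF1, the main receptor for messenger RNA export, was the only called rise, at 21.2, 25.8 and 26.9 CPM against 29.7, 32.4 and 27.8 CPM (log2 fold change 0.28, adjusted p = 0.0205). That call was lost without pGIPZ-NC replicate 1 (adjusted p = 0.155) or without shUSP39 replicate 2 (adjusted p = 0.129).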

How the data were processed

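The file deposited by the authors holds raw counts of reads for each RefSeq transcript in each of the 6 libraries. The submitters' processing notes name HISAT2, Cufflinks and hg19, and the counter and annotation behind the counts are not given in the sources used here. Columns of the authors' group means, folds, p-values and q-values were not used.

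Counts were summed per gene symbol (46 symbols turned into dates were restored). Genes were filtered with filterByExpr, scaled by TMM and fitted with edgeR 4.0.16 in R 4.3.3 (robust quasi-likelihood, group as the only term, all 6 libraries, 10695 genes), with p-values adjusted over all of them. The biological coefficient of variation was 7.59%. The series describes biological triplicates. The fit was tested on simulated data. DESeq2 1.42.0, limma 3.58.1, other scalings and filters and leaving out each library were tried. Coordinates, exons and transcript lengths came from GENCODE 44 on GRCh37. Named genes were KPNB1, every called member, the most abundant uncalled member of each role, every member too low to test, and the largest 3 rises and falls among pathway genes, and genes outside this rule were named after their values were seen. Members and lists were chosen with earlier results of these data known.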

Additional observations from a re-analysis of the deposited data

How the results depend on the processing

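Of the 18 called members, 16 passed in all 15 alternative analyses. The exceptions were IPO8 (without shUSP39 replicate 3) and TNPO2, whose adjusted p was 0.0913 with upper-quartile scaling, 0.0618 with library size only, 0.0509 without a filter and 0.0794 on the highest transcript. The number of members lower stayed between 15 and 18. The median over members was -0.15 with upper-quartile scaling, -0.16 with library size only, and between -0.22 and -0.17 with 1 library left out. Without a filter the median of all genes moved to 0.12, and the members stayed 0.31 under it on the log2 scale (a difference of -0.31, against -0.20 with the filter). Libraries of the same replicate number correlated weakly (0.086, 0.012 and 0.025), against -0.058 to 0.034 for the other pairs across groups. Replicates 1 and 3 of pGIPZ-NC correlated best with the shUSP39 library of the same number, and pGIPZ-NC replicate 2 with shUSP39 replicate 3. Such weak values cannot exclude a pairing by replicate number. With replicate number as a block, 19.4% of all genes were lower, against 17.5% in the main fit. The adjusted p of KPNB1 in edgeR was then 5.4e-06, against 0.00034. With the replicate block 18 members were lower, NUP58 being added (adjusted p = 0.0458), which made 1 lower member in the central channel, as did leaving out shUSP39 replicate 2 (0 to 1 over the libraries left out). Higher pathway genes numbered 2 with upper-quartile scaling, library size only or the replicate block, and 0 to 2 with 1 library left out, and higher member transcripts 0 to 1. Signs turned for estimates near 0: with upper-quartile scaling IPO13 (0.011), XPOT (0.011) and NUP88 (0.012), and with 1 library left out NUP88 (-0.33 to 0.31), NUP153 (-0.45 to 0.33), NUP214 (-0.019 to 0.26), NUP50 (-0.0012 to 0.099) and NUP98 (-0.11 to 0.03). The causes were not tested. Members with few counts limit the group: 15 of 37 had a mean under 1000 counts.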

Other observations

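Ratios of counts within 1 library need no scaling between libraries. They were chosen after the values were seen and are given as values with no test. KPNA4 over KPNA3 was 2.32, 2.45 and 2.28 in the pGIPZ-NC libraries and 3.14, 3.53 and 3.30 in the shUSP39 libraries. The membrane nucleoporin NUP210 over the inner ring nucleoporin NUP188 was 1.13, 1.17 and 1.18 against 0.887, 0.925 and 0.932. IPO5 over IPO7 was 0.450, 0.471 and 0.478 against 0.366, 0.367 and 0.386, and XPOT over XPO1 was 0.783, 0.808 and 0.816 against 0.860, 0.889 and 0.892. None of these 4 ratios overlapped between the groups. Taken library by library, the median log2 difference of the members from the pGIPZ-NC mean was -0.18, -0.20 and -0.21 in shUSP39 replicates 1, 2 and 3, and that over all genes was between 0.00 and 0.01 in the same libraries.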
